A study of Mus musculus with 8 samples.

Results

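The extracellular matrix genes measured here were the collagens, the laminins and a set of matrix glycoproteins and proteoglycans in epididymal white adipose tissue (eWAT). They were chosen by gene symbol: the collagen and laminin chains, the fibulins (Fbln and Efemp genes), fibrillin, the emilins and the nidogens, together with Fn1, Sparc, Dcn, Lum, Bgn, Hspg2, Postn and Eln. The symbols matched 51 of the 8562 genes of the table, of which 50 encode matrix proteins. The remaining match, Col4a3bp, encodes a ceramide transporter that is no part of the matrix, and it was left out of all counts below. Both genotypes were male mice aged 6 weeks that carried homozygous floxed HuR alleles (HuRf/f), from a line backcrossed to C57BL/6 for 2 generations. The HuR-FKO mice (AdipoQ-Cre;HuRf/f) also carried adiponectin-Cre, and their littermates without it were the controls (Ctrl). Tissue of 3 mice was pooled per replicate, and each pool was divided into a share for mRNA sequencing and a share for sequencing of ribosome-protected fragments (RPF). With 2 pools per genotype there were 8 libraries. The adiponectin promoter directs Cre to adipocytes, so fibroblasts, vascular cells and immune cells of the tissue keep HuR. The RPF labels also name a HuR antibody, although the described preparation holds no immunoprecipitation, and the libraries were taken as ribosome profiling.

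Adipocytes are each wrapped in a basement membrane, a sheet built from type IV collagen and laminin networks that nidogens and perlecan link together. Between the cells lies an interstitial matrix of fibrillar collagens I, III and V, beaded filaments of collagen VI, elastic fibres and small proteoglycans, made largely by fibroblasts, with adipocytes, endothelial cells and mural cells also contributing. Collagen chains are translated on the endoplasmic reticulum, where they are hydroxylated and fold into triple helices of repeated Gly-X-Y triplets before secretion. HuR is an RNA-binding protein that binds U-rich and AU-rich elements, often in 3′ UTRs, and is known to stabilise many of its target mRNAs.

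The repeat that defines a collagen can be read in the coding sequences, and a stretch is shown for each of the 4 collagens whose mRNA differed between genotypes below. Each line gives 9 codons of the longest uninterrupted Gly-X-Y run, written as DNA from 5′ to 3′, with the glycine codons in capitals.
Col6a5: GGTtcttcaGGTccaaaaGGTagcaga
Col4a5: GGTcccaaaGGAaaccctGGGcctcaa
Col28a1: GGAgaaactGGAgaaagaGGTcctgtg
Col15a1: GGAcccccgGGGtctcctGGGgaggat
The stretches lie at bases 4324 to 4350 of the Col6a5 coding sequence, 3745 to 3771 of Col4a5, 829 to 855 of Col28a1 and 1885 to 1911 of Col15a1, counted from 1 at the start codon, in exonic sequence. The longest run held 37 triplets in Col6a5, 42 in Col4a5, 28 in Col28a1 and 30 in Col15a1. The 6 fibrillar collagens stood apart in this respect, with single runs of 337 to 344 triplets, while Col6a1 and Col6a2 each had 87.

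The core AU-rich pentamer AUUUA was looked for in the sense strand of the annotated 3′ UTRs (GRCm38, GENCODE M21). Of the 49 matrix genes with an annotated transcript, 30 (61.2%) held at least 1 copy, against 66.1% of the 8245 genes of the table with a transcript. Over the summed 3′ UTRs, matrix genes held 1.82 copies per kilobase and all genes 1.86. One copy is shown, with 10 bases on each side and the pentamer in capitals, for each of the 6 genes with such a copy among the 8 whose mRNA differed between genotypes.
Col6a5: aaugccaaucAUUUAuuagaagggu
Postn: uuuacacuugAUUUAuauccucgag
Col28a1: agaguuaagaAUUUAgcccaaagug
Col4a5: auguugagucAUUUAgaugugaucu
Lama5: cagauauuauAUUUAuacuuuguuc
Nid2: guaaacaguuAUUUAaaaggccaaa
These windows begin at base 67 of the 3′ UTR in Col6a5, 511 in Postn, 423 in Col28a1, 522 in Col4a5, 96 in Lama5 and 253 in Nid2. The 3′ UTRs of Col15a1 and Lamc3, which also differed, held no AUUUA. A match is a stretch of letters, and no binding was measured here.

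Values are RPKM, read numbers on the coding sequence normalised for its length and for the depth of the library, so that levels can be compared between genes. The mRNA libraries held 5223721 to 8060054 coding reads and the RPF libraries 531966 to 1311977. At the median matrix gene the mRNA libraries had 1930.5 to 2869 reads and the RPF libraries 311.5 to 809.5. Intervals from such reads would cover counting error only and leave out the differences between pools. They would understate even the counting error, because PCR copies are not independent molecules. Elavl1, which encodes HuR, measured 40.8 and 49.8 RPKM in the Ctrl mRNA libraries and 41.6 and 43.3 RPKM in the HuR-FKO ones (adjusted p = 0.70). In RPF it measured 64.6 and 81.8 RPKM in Ctrl against 56.0 and 63.3 RPKM in HuR-FKO. These did not overlap, as was the case for 41.8% of all genes in RPF. The mRNA values did not check the labels, and directions below are those of the libraries as labelled. Adipoq, a marker of adipocytes, lay between 4495 and 4895 RPKM in mRNA, and all 9 adipocyte markers were listed. None of 6 markers of the epididymal epithelium was listed.

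Several matrix genes were among the most abundant mRNAs of the tissue, and the summed level of the group overlapped between genotypes. In mRNA the 50 genes added up to 14565 and 14018 RPKM in Ctrl and to 15341 and 14428 RPKM in HuR-FKO. They took 4.14% to 4.76% of coding reads in mRNA and 6.21% to 6.73% in RPF, counted over the 48 genes with recoverable reads. Sparc, a collagen-binding matricellular protein, led the group, at 4313 and 4512 RPKM in Ctrl and 4469 and 4384 RPKM in HuR-FKO. It ranked between 8 and 11 among all genes in every mRNA library. Col3a1, the single chain of type III collagen, measured 1622 and 1413 RPKM in Ctrl and 1756 and 1530 RPKM in HuR-FKO. Dcn (decorin), a small proteoglycan that binds collagen fibrils, measured 1368 and 1134 RPKM in Ctrl and 1281 and 1408 RPKM in HuR-FKO. At the other end of the group Col12a1, a collagen associated with fibril surfaces and chosen here after its values were seen, lay between 1.16 and 1.32 RPKM in mRNA. In every library Sparc was thus more than 1000 times as abundant per length as Col12a1. For Col12a1 no annotated transcript was matched, so the length behind its values was not checked.

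In mRNA, 6 of the 50 matrix genes were higher in HuR-FKO and 2 were lower, while 42 did not pass the test (limma, adjusted p under 0.05). Of all 8562 genes 14.0% passed, against 16% of the matrix genes, so the share was close to the background. The median log2 fold change was 0.10 for the matrix genes and 0.02 for all genes. Across the 8245 genes with a transcript the mRNA change correlated at Spearman rho = 0.38 with transcript length and -0.30 with coding G+C content. Across 49 matrix genes these values were 0.31 and -0.33. Matrix transcripts were long, with a median of 5629 bases against 2981 for all genes. The part of length and G+C content in the mRNA changes was not tested. The genotypes did not overlap for 26 of the matrix genes, 19 of which were higher and 7 lower in both HuR-FKO libraries, which is 52.0% of them against 60.3% of all genes. The genes that passed were Col6a5, Postn, Col28a1, Col4a5, Lama5 and Lamc3, which rose, and Col15a1 and Nid2, which fell. None of the 6 fibrillar collagens, 9 elastic fibre genes and 3 leucine-rich proteoglycans was among them. In tissue, fewer cells of a type and less RNA per cell cannot be told apart.

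**Figure D1:**
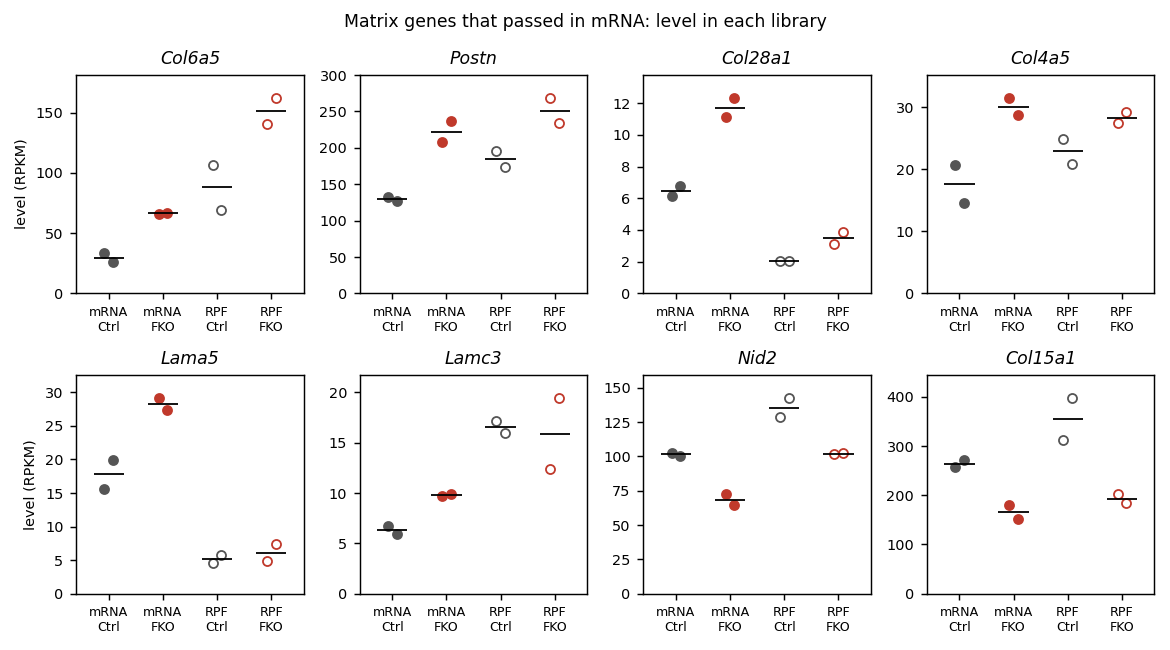
Level in RPKM of the 8 matrix genes that passed the mRNA test, in each of the 8 libraries (filled points mRNA, open points RPF, grey Ctrl, red HuR-FKO or FKO, line the mean of 2 libraries). In mRNA the genotypes are apart for all 8 genes, while in RPF they overlap for Lama5 and Lamc3.

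The largest rise was that of Col6a5 (NM_001167923, chr9:105856078-105960643 on the minus strand of GRCm38), which encodes a long α chain of collagen VI that can take the place of the α3 chain. Its mRNA level was 33.4 and 25.6 RPKM in Ctrl and 66.1 and 66.9 RPKM in HuR-FKO (log2 fold change 1.16 ± 0.14, SE, adjusted p = 0.00090). Both HuR-FKO libraries lay well above both Ctrl libraries. Col28a1 (NM_001037865, chr6:7997808-8192617, minus strand), a beaded filament collagen related to collagen VI, measured 6.15 and 6.77 RPKM in Ctrl and 11.1 and 12.3 RPKM in HuR-FKO (log2 fold change 0.77 ± 0.16, adjusted p = 0.013). Again the groups were apart. The abundant collagen VI chains did not pass. Col6a1 measured 360.4 and 375.8 RPKM in Ctrl against 338.6 and 315.6 RPKM in HuR-FKO, and Col6a2 352.9 and 371.2 RPKM against 338.7 and 293.9 RPKM, with log2 fold changes of -0.17 ± 0.11 and -0.20 ± 0.12. Col6a3, which pairs with these chains, had a log2 fold change of 0.15 ± 0.11. In RPKM the Ctrl level of Col6a5 was a small part of that of Col6a1. Mean Col6a5 went from 29.5 RPKM in Ctrl to 66.5 RPKM in HuR-FKO, while Col6a1 went from 368.1 to 327.1 RPKM and Col6a2 from 362.1 to 316.3 RPKM. The class as a whole added up to 833 and 853 RPKM in Ctrl and 844 and 778 RPKM in HuR-FKO.

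Among the 7 network collagens, Col4a5 (NM_001163155, chrX:141475385-141689234, plus strand) was the chain that passed, with a rise. It encodes the α5(IV) chain, which assembles with α3 and α4 or with α6, and it measured 20.8 and 14.6 RPKM in Ctrl and 31.5 and 28.8 RPKM in HuR-FKO (log2 fold change 0.76 ± 0.17, adjusted p = 0.017). The Ctrl libraries differed from each other more than the HuR-FKO libraries did, but the genotypes did not overlap. Col4a1 and Col4a2, the chains of the common type IV network, were far more abundant and did not pass. Col4a1 measured 786 and 789.96 RPKM in Ctrl and 1000.01 and 879 RPKM in HuR-FKO (log2 fold change 0.25 ± 0.12, adjusted p = 0.18). Col4a2 measured 467 and 510.1 RPKM against 529 and 461 RPKM, with overlapping groups (log2 fold change 0.02 ± 0.12). The other network chains lay between 1.56 and 7.94 RPKM in mRNA and none of them passed. Among them Col4a6, named after its values were seen, measured 3.94 and 3.40 RPKM in Ctrl. In HuR-FKO it measured 6.15 and 5.38 RPKM, with the groups apart (log2 fold change 0.54 ± 0.20, adjusted p = 0.097).

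In the basement membrane classes 2 laminin chains rose and 1 nidogen fell. Lama5 (NM_001081171, chr2:180176373-180225859, minus strand), a laminin α chain of epithelial and vascular basement membranes, measured 15.7 and 19.96 RPKM in Ctrl and 29.1 and 27.4 RPKM in HuR-FKO (log2 fold change 0.65 ± 0.14, adjusted p = 0.018). Lamc3 (NM_011836, chr2:31887344-31946539, plus strand), a laminin γ chain, measured 6.72 and 5.91 RPKM in Ctrl and 9.72 and 9.89 RPKM in HuR-FKO (log2 fold change 0.57 ± 0.16, adjusted p = 0.046). For both genes the groups were apart. The most abundant laminin chains, Lamc1 and Lama4, did not pass. Lamc1 lay between 166.2 and 195.8 RPKM over the 4 mRNA libraries, with overlapping genotypes (log2 fold change 0.09 ± 0.12), and Lama4 between 128.3 and 158.5 RPKM (log2 fold change 0.16 ± 0.12). Nid2 (nidogen-2, NM_008695, chr14:19751265-19811787, plus strand), one of the linkers between laminin and type IV collagen, fell from 102.7 and 100.5 RPKM in Ctrl to 72.7 and 64.5 RPKM in HuR-FKO (log2 fold change -0.56 ± 0.12, adjusted p = 0.014). Its relative Nid1 measured 402 and 324 RPKM in Ctrl and 380.1 and 368 RPKM in HuR-FKO, with overlapping groups. Hspg2 (perlecan), a large heparan sulphate proteoglycan, measured 142.0 and 142.0 RPKM in Ctrl and 176.0 and 149.5 RPKM in HuR-FKO, and its log2 fold change of 0.19 ± 0.12 did not pass.

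Col15a1 (NM_009928, chr4:47208161-47313167, plus strand) showed the largest fall. It encodes a collagen with a heparan or chondroitin sulphate side chain that sits between basement membranes and the underlying fibrils, and it measured 257 and 272 RPKM in Ctrl and 179.6 and 152.2 RPKM in HuR-FKO (log2 fold change -0.67 ± 0.12, adjusted p = 0.0073). Both HuR-FKO libraries lay below both Ctrl libraries. Col18a1, its closest relative and the source of endostatin, measured 79.4 and 78.2 RPKM in Ctrl and 69.4 and 58.0 RPKM in HuR-FKO (log2 fold change -0.31 ± 0.13, adjusted p = 0.13). Its groups were also apart, but it did not pass. Postn (periostin, NM_015784, chr3:54361125-54391034, plus strand), a secreted protein that binds collagen and integrins, rose from 132.1 and 126.9 RPKM in Ctrl to 208.3 and 236.7 RPKM in HuR-FKO (log2 fold change 0.77 ± 0.12, adjusted p = 0.0027). Of the other adhesive proteins, Fn1 (fibronectin) overlapped at 322 and 226.0 RPKM in Ctrl and 362 and 318 RPKM in HuR-FKO, and Sparc had a log2 fold change of 0.00 ± 0.12.

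**Figure D2:**
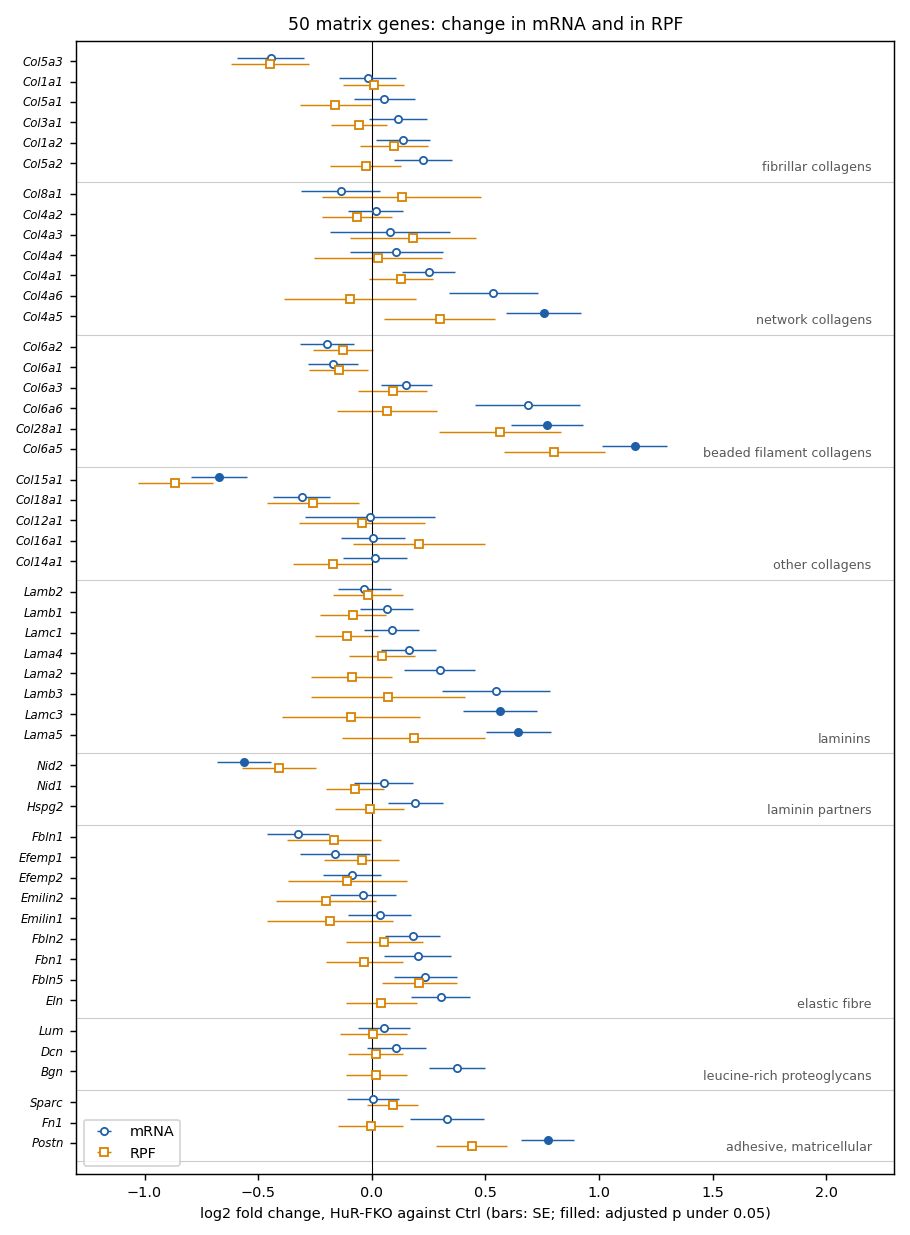
Log2 fold change, HuR-FKO against Ctrl, of the 50 matrix genes in mRNA (blue circles) and RPF (orange squares), by class, with SE bars and filled symbols where the adjusted p was under 0.05. The 8 filled symbols are all in mRNA, from -0.67 for Col15a1 to 1.16 for Col6a5.

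The 6 fibrillar collagens did not pass in either direction. Col1a1 and Col1a2, the chains of type I collagen, had mRNA log2 fold changes of -0.02 ± 0.13 and 0.14 ± 0.12, Col3a1 of 0.11 ± 0.13, and Col5a1 and Col5a2, the chains that start fibrils, of 0.05 ± 0.13 and 0.23 ± 0.13. Col5a3, a further type V chain, measured 369 and 388 RPKM in Ctrl and 324 and 237.6 RPKM in HuR-FKO, with the groups apart (log2 fold change -0.45 ± 0.15, adjusted p = 0.073), and its RPF log2 fold change was -0.45 ± 0.17. It is named after its values were seen. Eln (elastin) measured 185.0 and 219.6 RPKM in Ctrl and 265.9 and 233.0 RPKM in HuR-FKO (log2 fold change 0.30 ± 0.13, adjusted p = 0.15), and Efemp1 (fibulin-3) had a log2 fold change of -0.16 ± 0.15. Bgn (biglycan), a small proteoglycan, measured 247 and 289 RPKM in Ctrl and 328 and 366 RPKM in HuR-FKO (log2 fold change 0.38 ± 0.12, adjusted p = 0.072).

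The number of calls depended on the libraries and on the fit. The share of all genes that passed, stated earlier, is that of the main fit, and the shares in the other fits are not given here. Without HuR-FKO replicate 1, 2 genes were higher (Col6a5 and Postn) and 1 lower (Col15a1), and without HuR-FKO replicate 2 only Col6a5 passed, with a change of 1.15 on the log2 scale. When Ctrl replicate 1 was left out, 10 genes were higher and 3 lower. Lamc3 also did not pass without Ctrl replicate 2 (adjusted p = 0.095), with quantile normalization (0.098) or with median ratio scaling (0.056), nor Lama5 with the trend in length and G+C content removed (0.077). When all 8 libraries shared 1 fit, Col6a5, Postn and Col15a1 passed, while Nid2 (adjusted p = 0.055), Col28a1 (0.085), Col4a5 (0.099), Lama5 (0.22) and Lamc3 (0.27) did not. The direction of all 8 genes was the same in each of these fits. With the trend in length and G+C content removed, each rise was smaller, at 0.88 for Col6a5 against 1.16 in the main fit. Both falls were larger, at -0.72 for Col15a1 against -0.67.

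In RPF none of the 50 matrix genes passed, where 0.444% of all genes did. An unadjusted p under 0.05 was found for 5 matrix genes and for 913 of all 8562 genes. With limma's voom on recovered reads, for which no share of all genes is given here, 2 matrix genes passed, Col15a1 and Col6a5. The sign of the RPF change was that of the mRNA change for 7 of the 8 genes above. Both assays drew on the same pools, so this is no independent check of the mRNA calls. Col15a1, with the lowest adjusted p of the group, measured 312 and 397 RPKM in Ctrl and 201.7 and 184.2 RPKM in HuR-FKO (RPF log2 fold change -0.87 ± 0.16, adjusted p = 0.084). Col6a5 measured 106.3 and 69.6 RPKM in Ctrl and 140.4 and 162.1 RPKM in HuR-FKO (RPF log2 fold change 0.80 ± 0.22, adjusted p = 0.25). For both genes the genotypes were apart in RPF as they were in mRNA. Without Ctrl replicate 1 both of them passed, at RPF log2 fold changes of -1.04 and 1.11. Postn measured 195.5 and 174.2 RPKM in Ctrl and 268.6 and 233.9 RPKM in HuR-FKO (RPF log2 fold change 0.44 ± 0.16, adjusted p = 0.37), and Nid2 128.9 and 142.4 RPKM against 101.5 and 102.2 RPKM (RPF log2 fold change -0.41 ± 0.16, adjusted p = 0.42). Col4a5 had an RPF log2 fold change of 0.30 ± 0.24.

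The 3 other genes had fewer footprints than the median matrix gene, and Col28a1 had the fewest. The median of all genes with recovered reads was 17 to 40 reads in the RPF libraries. Col28a1 had 5 to 14 RPF reads per library, at 2.03 and 2.02 RPKM in Ctrl and 3.12 and 3.84 RPKM in HuR-FKO. Lama5 had 44 to 71 reads and overlapped, at 4.59 and 5.82 RPKM in Ctrl and 4.85 and 7.41 RPKM in HuR-FKO. Lamc3 had 49 to 94 reads and also overlapped, at 17.2 and 16.01 RPKM in Ctrl and 12.4 and 19.4 RPKM in HuR-FKO. Its RPF log2 fold change of -0.09 ± 0.30 had the opposite sign to that in mRNA. The median RPF log2 fold change of the matrix genes was -0.01, against -0.05 for all genes, and 17 of them (34.0%) did not overlap between genotypes, against 41.8% of all genes. The chains of collagens I and III had RPF log2 fold changes of 0.01 ± 0.14 for Col1a1, 0.10 ± 0.15 for Col1a2 and -0.05 ± 0.12 for Col3a1.

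Translational efficiency (TE) is the footprint level of a gene relative to its mRNA, and it was compared between genotypes as the interaction of genotype and assay over the 8 libraries. None of the 50 matrix genes passed, where 0.0117% of all genes did, and none passed with voom. None had an unadjusted p under 0.05 in limma, where 688 of all 8562 genes did. The interaction was negative for 38 matrix genes and positive for 12, where it was negative for 4985 and positive for 3577 of all 8562 genes. Its median was -0.13 on the log2 scale for the matrix genes and -0.07 for all genes. Among the matrix genes the interaction ranged from -0.66 ± 0.33 for Lamc3 to 0.27 ± 0.40 for Col8a1. For Col6a5 it was -0.35 ± 0.30 and for Col15a1 -0.19 ± 0.21.

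Most matrix mRNAs carried more footprints per mRNA than the median gene of the tissue, and this ribosome load spanned a wide range among them. For each pool the log2 difference between RPF and mRNA level was taken relative to the median gene of that pool, and its mean over both genotypes was tested against 0 over 4 pools. Of the 50 matrix genes 35 lay above the median gene, where 33.8% of all genes did, and 6 lay below, where 33.7% did, while 9 did not pass. The median matrix gene carried a ribosome load 0.81 higher on the log2 scale than the median gene, and its value in the single pools was 0.73 and 0.87 in the Ctrl pools and 0.68 and 0.86 in the HuR-FKO pools. In all 4 pools 37 matrix genes were above the median gene and 6 below. Of the 50 genes, 21 were among the top 10% of all genes and 32 among the top 25%.

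**Figure D3:**
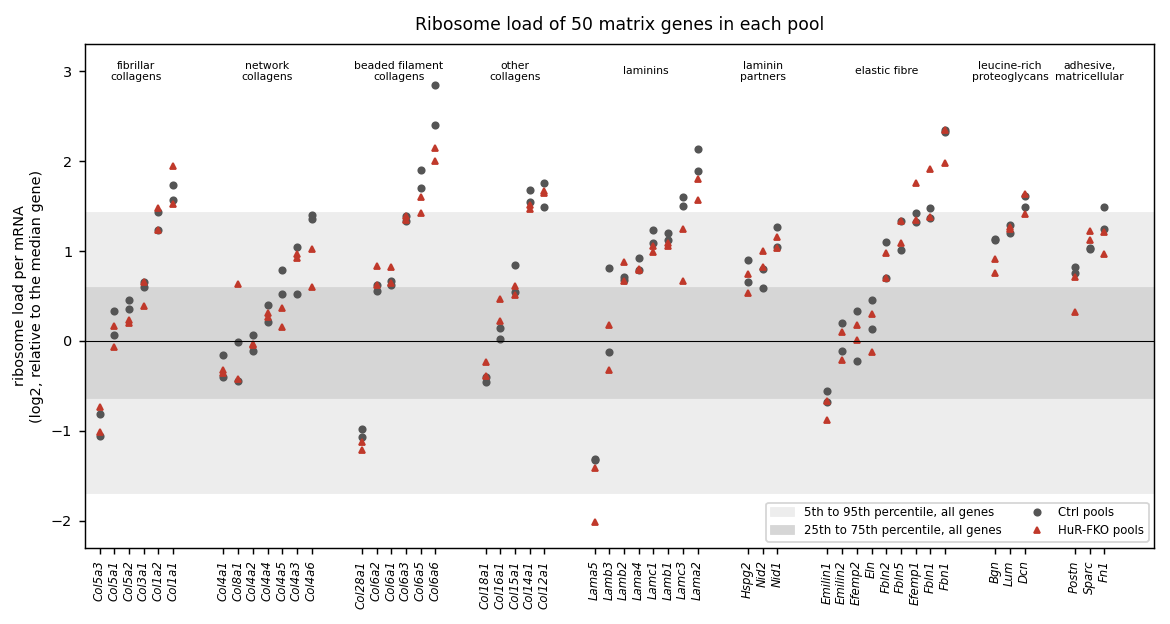
Log2 ribosome load (RPF over mRNA, relative to the median gene of the pool) of the 50 matrix genes in the 4 pools, by class (grey circles Ctrl, red triangles HuR-FKO), over bands for the percentiles of all genes. Most classes hold genes both below and above the median gene, and the means over the pools run from -1.52 for Lama5 to 2.35 for Col6a6.

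Heavily loaded matrix mRNAs came from every kind of assembly. Dcn, with RPF levels of 3208 and 2830.2 RPKM in Ctrl and 3134 and 2966 RPKM in HuR-FKO, had a ribosome load of 1.54 ± 0.08 (SE) over the median gene on the log2 scale. Col1a1 had 1.70 ± 0.10 and Col1a2 1.34 ± 0.09, Sparc 1.10 ± 0.08 and Col6a5 1.66 ± 0.11. Lamc1, the γ chain of most laminins of the tissue, had 1.09 ± 0.09, Nid1 1.13 ± 0.09 and Fn1 1.23 ± 0.09. Chosen after their values were seen, the highest of all were Col6a6, a further long chain of collagen VI, with 2.35 ± 0.15, Fbn1 (fibrillin-1), the main protein of microfibrils, with 2.25 ± 0.10, and Lama2, a laminin α chain best known from muscle, with 1.85 ± 0.12. Fbn1 measured 144.3, 108.9, 152.1 and 136.95 RPKM in mRNA but 605, 455, 475 and 553 RPKM in RPF, each series given as Ctrl 1, Ctrl 2, HuR-FKO 1 and HuR-FKO 2. The coding sequence matched to Col6a6 was 3549 bases long and held no run of more than 2 Gly-X-Y triplets, so its value rests on a short annotated transcript.

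Within the same classes some chains lay at or below the median gene. Lama5 had the lowest ribosome load, -1.52 ± 0.17, followed by Col28a1 with -1.10 ± 0.17 and, chosen after their values were seen, Col5a3 with -0.91 ± 0.10 and Emilin1 with -0.70 ± 0.15. Against its Ctrl mRNA levels of 369 and 388 RPKM, Col5a3 measured 147.2 and 178.4 RPKM in Ctrl RPF. Col4a1 and Col18a1 were slightly low, at -0.31 ± 0.09 and -0.37 ± 0.12, and Col4a2 lay at -0.03 ± 0.09. The class medians ran from 0.30 in the network collagens and 0.44 in the fibrillar collagens to 0.96 in the laminins, 1.03 in the beaded filament collagens and 1.25 in the leucine-rich proteoglycans, with a spread inside most classes that was wider than the distance between classes.

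Ribosome load moved with base composition. Across the 49 matrix genes with a transcript it correlated at Spearman rho = -0.56 with coding G+C content, against -0.28 across the 8245 genes, and across the 23 collagens it was -0.42. Genes share libraries and base composition, and these values are descriptions. Matrix coding sequences were long and G+C-rich, with medians of 4395 bases and 56.9% against 1404 bases and 52.4% for all genes. When the trends with length and G+C content were taken out of each library, 43 matrix genes lay above and 3 below the median gene, and Col4a1 and Col18a1 turned from below to above (0.34 and 0.32). The shares of all genes above and below the median gene stated earlier are those of the main fit, and those of this fit are not given here.

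Marker genes of the cell types also differed in this measure, and mRNA and RPF came from separate shares of each pool that were lysed in different ways. All 9 endothelial markers lay below the median gene, with a median of -0.89 on the log2 scale, and their summed level was 1021 to 1644 RPKM in mRNA but 401 to 498 RPKM in RPF. Of the 12 fibroblast and preadipocyte markers 8 lay above and none below (median 0.66), as did 6 of 9 adipocyte markers (median 0.80, 1 below), 8 of 9 macrophage markers (median 0.91) and 6 of 8 mesothelial markers (median 2.13). Of 7 mural markers 2 lay above and 3 below. The part of the cell types in the ribosome load of the matrix genes was not tested.

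Cell type markers were also set beside the mRNA result, in which 642 of all 8562 genes were higher and 560 lower. Of the 9 macrophage markers 5 were higher in HuR-FKO and none lower, with sums of 1134 to 1245 RPKM in Ctrl and 1428 to 1496 RPKM in HuR-FKO. Of the 12 fibroblast and preadipocyte markers 1 was higher, and their sum was 9427 to 10129 RPKM in Ctrl and 7362 to 8552 RPKM in HuR-FKO, most of it from Gsn. Among 9 endothelial and 7 mural markers 1 of each was lower, and none of 8 mesothelial markers passed. The sums of the endothelial, mural and mesothelial markers overlapped between genotypes. Among 9 adipocyte markers 1 was higher and 1 lower. Their sum was 61838 and 63141 RPKM in Ctrl and 76408 and 73477 RPKM in HuR-FKO, without overlap. Of the 6 red blood cell genes 5 were lower, with sums of 8331 and 12267 RPKM in Ctrl against 3605 and 5984 RPKM in HuR-FKO. The part of these cells in the 8 changes was not tested.

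The chains that build the same protein were compared by the ratio of their levels, for 10 pairs in each library. In mRNA Col1a1 was less abundant than Col1a2, at a ratio of 0.832 ± 0.063 (SD over 4 pools), whereas in RPF the ratio was 1.06 ± 0.064 and higher in 4 of 4 pools. Type I collagen contains more α1 than α2 chains. The ratio of Col3a1 to Col1a1 was 3.53 ± 0.25 in mRNA and 1.62 ± 0.061 in RPF, lower in each of the 4 pools, so that the excess of type III over type I mRNA was much smaller among footprints. Col6a3 stood at 0.209 ± 0.028 of Col6a1 in mRNA and 0.336 ± 0.032 in RPF. The annotated length of Col6a3 gave no whole reads, so the size of this ratio rests on an unchecked length. The ratio of Col6a1 to Col6a2, chains that enter collagen VI in equal number, was 1.03 ± 0.033 in mRNA and 1.05 ± 0.040 in RPF and did not shift in one direction.

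**Figure D4:**
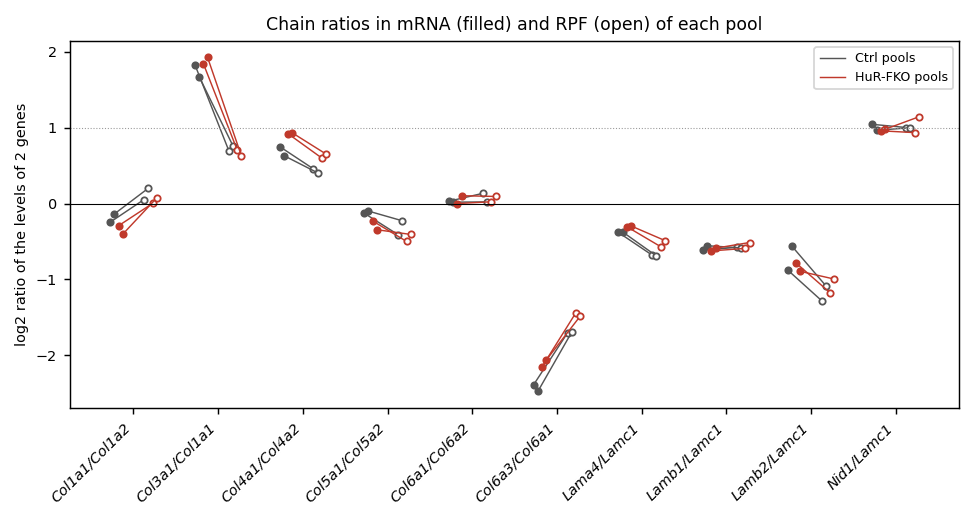
Log2 ratio of the levels of 2 genes in mRNA (filled) and RPF (open) for 10 pairs of matrix chains, with a line for each of the 4 pools (grey Ctrl, red HuR-FKO). The Col3a1/Col1a1 lines fall and the Col6a3/Col6a1 lines rise in every pool, while those of Col6a1/Col6a2 and Lamb1/Lamc1 are near flat.

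Type IV collagen and the laminins gave further pairs. Col4a1 exceeded Col4a2 by a ratio of 1.76 ± 0.17 in mRNA and 1.44 ± 0.12 in RPF. In mRNA this ratio was 1.68 and 1.55 in the Ctrl pools and 1.89 and 1.91 in the HuR-FKO pools, without overlap between genotypes. The mRNA ratios of Col1a1/Col1a2, Col3a1/Col1a1, Col5a1/Col5a2, Col6a3/Col6a1 and Lama4/Lamc1 did not overlap either, while those of the remaining pairs did. Among single genes 60.3% of all genes did not overlap in mRNA. Relative to Lamc1, Lamb1 (the β1 chain) measured 0.662 ± 0.014 in mRNA and 0.676 ± 0.017 in RPF, and Nid1 1.98 ± 0.054 and 2.03 ± 0.13, and neither ratio shifted the same way in every pool. Lamb2 relative to Lamc1 fell from 0.585 ± 0.064 to 0.457 ± 0.038, Lama4 from 0.791 ± 0.024 to 0.658 ± 0.045, and Col5a1 relative to Col5a2 from 0.872 ± 0.066 to 0.767 ± 0.062. For the 7 pairs that shifted the same way in 4 of 4 pools the exact paired permutation test (two-sided) gave p = 0.125, the smallest that 4 pools allow, and 0.179 after Benjamini-Hochberg adjustment over the 10 pairs. The exact p was 0.375 for Col6a1/Col6a2, 0.25 for Lamb1/Lamc1 and 0.75 for Nid1/Lamc1.

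Collagen chains need a set of enzymes and chaperones to fold and cross-link. Of 32 such genes 28 were listed, of which 1 was higher and 2 lower in mRNA, where 14.0% of all genes passed, and none passed in RPF, where 0.444% did, with a median mRNA log2 fold change of 0.05. Serpinh1 (HSP47), the chaperone that binds folded procollagen, fell from 700.1 and 680.1 RPKM in Ctrl to 454 and 412 RPKM in HuR-FKO (log2 fold change -0.67, adjusted p = 0.0050). Both HuR-FKO libraries were below both Ctrl libraries. Crtap, a subunit of the prolyl 3-hydroxylase complex, fell by 0.39 on the log2 scale (adjusted p = 0.049), and Plod2, which hydroxylates telopeptide lysines for cross-linking, rose by 0.46 (adjusted p = 0.045).

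Of 26 matrix receptors 21 were listed, of which 3 were higher and 2 lower in mRNA and none passed in RPF, beside 14.0% and 0.444% of all genes that passed. Itga3, the α subunit of the laminin receptor integrin α3β1, rose from 4.35 and 5.30 RPKM in Ctrl to 13.9 and 11.9 RPKM in HuR-FKO (log2 fold change 1.26, adjusted p = 0.0016). Sdc4 (syndecan-4), a heparan sulphate co-receptor for fibronectin, rose from 41.8 and 44.1 RPKM to 105.4 and 97.8 RPKM (log2 fold change 1.22, adjusted p = 0.00021). Itgb5, the β subunit of the vitronectin receptor αvβ5, fell from 124.1 and 120.4 RPKM to 75.2 and 78.1 RPKM (log2 fold change -0.67, adjusted p = 0.0048). For each of these 3 receptors the genotypes were apart in mRNA.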

How the data were processed

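The authors deposited RPKM values, reads on coding sequences scaled by length and library total, for 4 mRNA and 4 RPF libraries. Their processing notes name cutadapt 1.8.3, Bowtie 1.0.0 and TopHat2 2.0.9. Which genome build, annotation and counter served these libraries is not given in the sources used here. Every listed value was above 1 RPKM, so lower genes were left out before deposit. The authors' means, ratios and efficiency columns in the table were not used.

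Reads were recovered from RPKM and GENCODE M21 coding lengths (8245 genes, of which 98.4% gave whole reads within 0.001 read). Values were tested as log2(RPKM + 1), a scale that understates changes of low genes, in limma 3.58.1 (R 4.3.3, lmFit, eBayes with trend), over all 8562 genes, two-sided with Benjamini-Hochberg adjustment at 0.05. The mRNA and RPF fits used the 4 libraries of each assay. TE used all 8. The fits were also run on simulated reads with the same fixed spread for all genes and no trend in length or G+C content. Such a run checks the code and tells nothing of the spread of these libraries. An exact permutation test of 2 libraries against 2 cannot go below p = 0.333.

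The named genes are the 2 most abundant of each class in Ctrl mRNA, all that passed, and the chains of the ratios, with up to 3 from each other list. Of the genes that this rule takes, 1 is not reported here. The genes and lists were chosen with earlier results of these data known. The labels do not say that equal replicate numbers share a litter or day across genotypes, while both assays of a pool share their animals. Alternatives changed the pseudocount, filter, scaling, trend, block, model and libraries.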

Additional observations from a re-analysis of the deposited data

How the results depend on the processing

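The number of matrix genes higher in HuR-FKO mRNA was 6, and 10 with voom on recovered reads, 10 with a replicate block and 2 when all 8 libraries shared 1 fit. It ranged from 1 to 10 when 1 library was left out. The number lower was 2, and 4 with a replicate block and 1 in the shared fit, with a range of 0 to 3 over left-out libraries. In RPF no gene passed, against 1 with the trend in length and G+C content removed, 2 with voom, 1 with a replicate block, 1 in the shared fit, and 0 to 2 over left-out libraries. No interaction passed under any alternative run, the replicate block included. Equal numbers deviated together at r = 0.15 in mRNA and 0.00 in RPF across genotypes, and at 0.05 in Ctrl and HuR-FKO between the assays of a pool, so the block rests on a number alone across genotypes. The number of matrix genes below the median gene in ribosome load was 6, and 3 with the trend removed, 4 to 6 over left-out libraries. Those above ranged from 33 to 43. Reversed values were the RPF log2 fold changes of Lama5 (-0.077 without HuR-FKO replicate 2, range to 0.45 over left-out libraries) and Lamc3 (0.0079 with the trend removed, -0.40 to 0.22 over left-out libraries, positive without HuR-FKO replicate 1), the ribosome load of Col18a1 (0.32) and Col4a1 (0.34) with the trend removed, and the RPF shift of Nid1/Lamc1 (-0.010 without HuR-FKO replicate 2, range to 0.058). The cause was not tested. Shares of all genes beside the counts under the alternatives are not given here. In RPF depth limits Col28a1, Lamb3 and Col8a1, with as few as 5 reads.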

Other observations

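Genes of TGF-beta signalling and matrix proteins that the symbol rule did not take were read from the same fits. Of 17 TGF-beta ligands, receptors, latency proteins and targets 15 were listed, of which 6 were higher and none lower in HuR-FKO mRNA, and 2 were higher in RPF, beside 14.0% of all genes that passed in mRNA and 0.444% in RPF. Ctgf, a matricellular protein, rose by 1.47 in mRNA and by 1.62 in RPF on the log2 scale (adjusted p = 0.025 in RPF). Cyr61, of the same family, rose by 1.45 in mRNA, while its RPF log2 fold change of 0.62 did not pass.

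Of 31 other matrix proteins 28 were listed, of which 3 were higher and 1 lower in mRNA, close to the 14.0% of all genes that passed, and none passed in RPF. Tinagl1, a basement membrane protein, rose from 104.7 and 147.9 RPKM in Ctrl to 339.1 and 294.1 RPKM in HuR-FKO (log2 fold change 1.34, adjusted p = 0.00088). Svep1, a large adhesion protein, rose by 0.69 on the log2 scale, and Tnc (tenascin-C) by 0.60. In ribosome load 19 of these 28 lay above the median gene and 7 below, with Tinagl1 at -1.84 and Svep1 at 1.28 on the log2 scale.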
